A study of Mus musculus with 24 samples.

Results

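The 4 mouse nuclear tRNA genes for leucine with the anticodon CAA were followed through a TET2 crosslinking experiment, a pull-down of 5-hydroxymethylcytosine (hm5C) in RNA, and small RNA sequencing of Tet2 knockout cells. They are chr11.tRNA1911-LeuCAA, chr13.tRNA1010-LeuCAA, chr13.tRNA65-LeuCAA and chr13.tRNA85-LeuCAA, and they are 4 of the 435 tRNA genes named by chromosome and anticodon among 53900 features in the crosslinking and pull-down tables. The fragment table holds 1305 rows, of which 12 belong to these genes, 1 for each of the fragment kinds tRF3a, tRF3b and tRF5. The 4 genes were chosen by their rises in TET2 CLIP, in hm5C RIP and in tRF3a of both knockout experiments. These rises are therefore given below as values without a test, and nothing is concluded from their direction.

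A tRNA carries an amino acid to the ribosome and reads a codon through its anticodon, and the leucine tRNA with anticodon CAA reads the codon UUG. Its anticodon begins with a cytosine at the wobble position, which NSUN2 methylates to 5-methylcytosine and ALKBH1 can oxidise further to hm5C and 5-formylcytosine. The LeuCAA genes carry an intron that the tRNA splicing endonuclease removes, which sets them apart from the other nuclear leucine tRNA genes. TET2 is a dioxygenase best known for oxidising 5-methylcytosine in DNA. In general tRF3 fragments come from the 3′ end of a mature tRNA and tRF5 fragments from its 5′ end, but the sources used here do not define the ends that separate tRF3a from tRF3b.

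In RefSeq annotation of GRCm38.p6, the assembly behind the mm10 build named in the submitters' processing notes, 4 LeuCAA tRNA genes are listed. n-TLcaa3 lies on chromosome 11 from 58302474 to 58302580. The other 3 lie on chromosome 13, with n-TLcaa4 from 21172837 to 21172942, n-TLcaa1 from 21200204 to 21200308 and n-TLcaa2 from 21914838 to 21914943. The tables likewise have 1 LeuCAA gene on chromosome 11 and 3 on chromosome 13. The 3 genes on chromosome 13 were not paired one to one with RefSeq entries, because the names in the tables carry no coordinates. The annotated genes span 105 to 107 bases against 82 to 83 bases in the 21 other leucine tRNA genes of RefSeq, and the annotated span includes the intron. In the tables, leucine has 8 AAG, 4 CAA, 10 CAG, 5 TAA and 3 TAG genes, with the mitochondrial copy counted under TAA.

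All libraries came from mouse embryonic stem cells grown on gelatin with serum, LIF, 3 µM CHIR99021 (which inhibits GSK3) and 1 µM PD0325901 (which inhibits MEK). For CLIP, in which RNA is crosslinked to a protein and purified with it, E14 cells labelled Tet2HA-His (an HA and His tag on TET2) received 500 µM 4-thiouridine for 4 hours and 400 mJ/cm2 of UVB. There were 2 input and 2 TET2 CLIP libraries of clone 65 and the same of clone 75, each line being 1 clone, and a pull-down from untagged cells was not analysed here. The RIP libraries, 2 of input and 2 of hm5C pull-down, came from untreated B6;129 cells. Experiment 1 of the small RNA sequencing held 3 WT and 3 Tet2 KO libraries made with an Illumina TruSeq kit, and experiment 2 held 3 E14 and 3 Tet2 KO libraries made with an NEBNext kit. RNA of 14 to 38 nt was size-selected for these libraries, and all carry the strain label B6; 129. The labels do not say whether a knockout is 1 clone or whether replicates are separate cultures, so p-values measure the spread between these libraries, which may be technical.

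Total counts ran from 913002 to 4729463 in the CLIP inputs, from 221060 to 453944 in TET2 CLIP, from 1564014 to 4889943 in RIP and from 96070 to 173450 in the small RNA tables. All 10 embryonic stem cell markers checked had counts in the CLIP inputs, with a summed level of 1055 to 1905 CPM, the usual unit of a count scaled to library size. The summed level of 5 fibroblast markers there was 1125 to 2055, nearly all from Fn1, and that of 4 trophoblast markers was 216 to 452, mostly from Gata3. In the RIP inputs, made with a small RNA kit, the stem cell markers summed to 24.99 to 25.97 CPM and the fibroblast markers to 17.9 to 18.8. WT replicate 1 of experiment 1 stood apart from its group, with a TMM scaling factor of 0.59 against 1.00 and 1.03 in replicates 2 and 3. In such bulk libraries, fewer cells of a type and less RNA per cell cannot be told apart.

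In TET2 CLIP all 4 LeuCAA genes stood above input, and by more in clone 65 than in clone 75. Levels are in CPM after TMM scaling of the library sizes. Over the 4 genes together, the 2 input libraries of clone 65 held 12.7 and 17.9 CPM and its 2 TET2 CLIP libraries 238 and 278. In clone 75 the inputs held 44.8 and 36.3 and the TET2 CLIP libraries 149 and 112. The 2 groups did not overlap in either clone, and the inputs of clone 75 lay above those of clone 65. How many of all features separate in this way was not computed, and the genes were chosen for this rise. The mean of the sum went from 15.3 ± 3.69 CPM to 258 ± 28.2 CPM in clone 65 (SD, n = 2 each). The log2 difference of the sum was 2.90 (SE 0.19), made up of 4.02 (SE 0.27) in clone 65 and 1.79 (SE 0.26) in clone 75.

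The counts behind these levels were small. chr11.tRNA1911-LeuCAA had 12 and 19 counts in the inputs of clone 65, 9 and 13 in its TET2 CLIP libraries, 3 and 16 in the inputs of clone 75 and 13 and 9 in its TET2 CLIP libraries. chr13.tRNA1010-LeuCAA had, in the same order, 6 and 19, 3 and 9, 8 and 21, and 16 and 10 counts. chr13.tRNA65-LeuCAA, the most counted of the 4 in 7 of the 8 libraries, had 15 and 34, 16 and 21, 14 and 26, and 25 and 3. chr13.tRNA85-LeuCAA had 8 and 26, 15 and 11, 9 and 13, and 12 and 6. Similar counts in input and TET2 CLIP stand for different levels because the TET2 CLIP libraries are shallower. The gene-level log2 differences over both clones were 3.13 (SE 0.39) for chr11.tRNA1911-LeuCAA, 2.66 (SE 0.45) for chr13.tRNA1010-LeuCAA, 2.80 (SE 0.34) for chr13.tRNA65-LeuCAA and 2.92 (SE 0.40) for chr13.tRNA85-LeuCAA. These 4 values lie within about 1 standard error of each other. The scaled levels of chr13.tRNA65-LeuCAA in clone 75 were 18.5 and 12.4 in input and 56.3 and 11.9 CPM in TET2 CLIP, so its groups overlapped. Without TET2 CLIP replicate 1 of clone 75 its log2 difference in that clone was -0.34, against 1.48 with it.

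**Figure D1:**
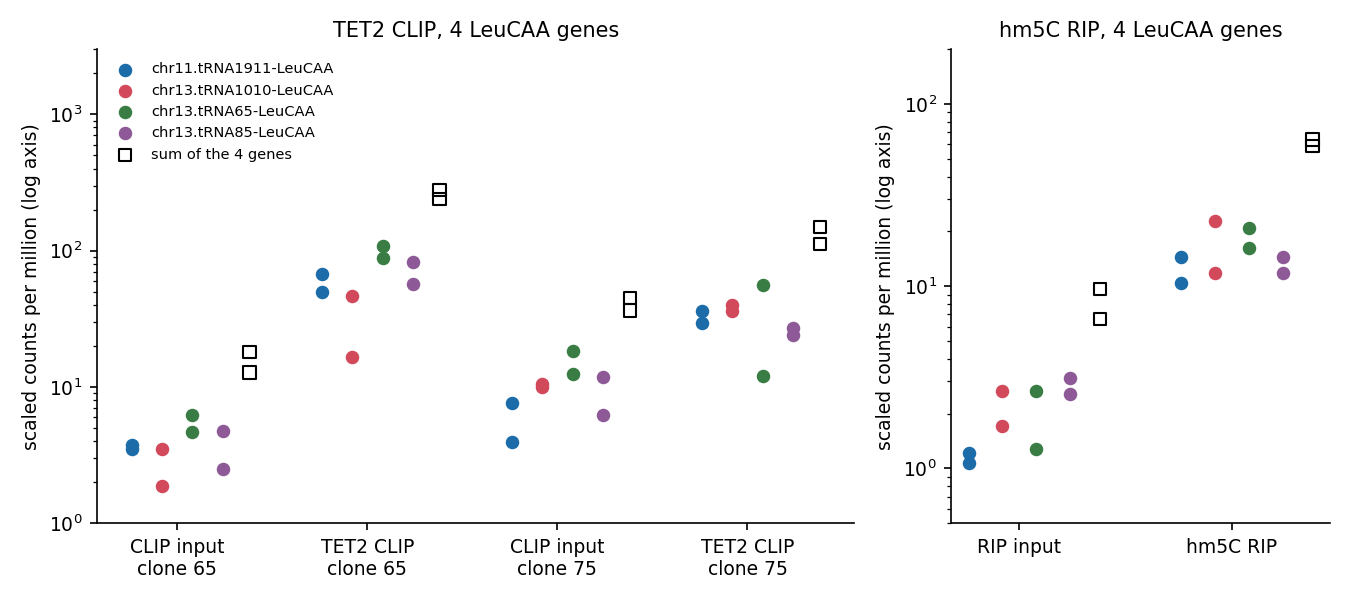
Scaled counts (CPM) on a log axis for each LeuCAA tRNA gene (filled circles) and their sum (open squares), 1 point per library, in the CLIP groups at left and the RIP groups at right. The summed level runs from 12.7 to 44.8 in CLIP input and from 112 to 278 in TET2 CLIP, and from 6.59 to 9.69 in RIP input and 58.9 to 63.9 in hm5C RIP.

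How far the clones differ was not a criterion in the choice of genes and was tested. The same libraries entered the rises by which the genes were chosen, so this test is not independent of the choice. edgeR's quasi-likelihood test with Benjamini-Hochberg adjustment over 10334 features called the rise of chr13.tRNA65-LeuCAA smaller in clone 75 than in clone 65, with a log2 difference of -2.63 (SE 0.63, adjusted p = 0.0166). The other 3 genes had differences of -1.76 (SE 0.73, adjusted p = 0.234) for chr11.tRNA1911-LeuCAA, -1.58 (SE 0.80, adjusted p = 0.351) for chr13.tRNA1010-LeuCAA and -2.42 (SE 0.74, adjusted p = 0.0794) for chr13.tRNA85-LeuCAA. So 1 of 4 was called lower, where 2.22% of all features were. Of the 8 other nuclear leucine tRNA genes tested, 0 were called lower, but all had negative values, from -2.06 to -0.55. Their median was -1.61, against -2.09 for LeuCAA and 0.02 over all features. Lower values in clone 75 were therefore not particular to LeuCAA. The call of chr13.tRNA65-LeuCAA was lost without input replicate 1 of clone 65 (adjusted p = 0.0854), and also without either input replicate of clone 75. Over all alternatives its adjusted p ran from 0.00035 to 0.0854. Without TET2 CLIP replicate 1 of clone 75 the value was -4.32.

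No criterion was set on the difference in input level between the clones either. These inputs did enter the rises by which the genes were chosen. The difference was called for 1 of the 4 genes. chr13.tRNA1010-LeuCAA was higher in the inputs of clone 75, at 10.5 and 10.0 CPM against 1.86 and 3.48 in clone 65. The log2 difference was 1.81 (SE 0.49, edgeR adjusted p = 0.0191), and 5.0% of all features were called higher in this comparison. The others also had positive values, with 1.32 (SE 0.42, adjusted p = 0.0501) for chr13.tRNA65-LeuCAA, 1.00 (SE 0.50, adjusted p = 0.313) for chr13.tRNA85-LeuCAA and 0.87 (SE 0.51, adjusted p = 0.418) for chr11.tRNA1911-LeuCAA. Of the 8 other nuclear leucine tRNA genes tested, 0 were called higher, with values from -0.25 to 1.69. Their median was 0.68, against 1.16 for LeuCAA. Leaving out any of the 4 input libraries ended the call of chr13.tRNA1010-LeuCAA, with adjusted p from 0.237 to 0.803. As a share of all tRNA counts, LeuCAA made up 0.547% and 0.784% of the inputs of clone 65 and 2.16% and 2.18% of its TET2 CLIP libraries. In clone 75 it made up 2.35% and 1.85% of the inputs and 2.47% and 2.13% of the TET2 CLIP libraries, so there the 2 groups overlapped and the level of the 4 genes moved with that of tRNA as a whole.

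The other nuclear leucine tRNA genes stood above input in the same libraries. Of the 25, 8 had enough counts to test. A gene could pass the count filter through its TET2 CLIP libraries alone, which favoured genes that were high there. The number called is therefore a description. Of the 8, 8 were called higher in TET2 CLIP over both clones and 0 lower, with a median log2 difference of 3.85. Over all features 8.99% were called higher, and the median was -0.03. chr13.tRNA62-LeuAAG, the most abundant of them, had a log2 difference of 3.32 (SE 0.28, edgeR adjusted p = 7.65e-11). chr1.tRNA698-LeuCAG had 5.14 (SE 0.68, adjusted p = 6.93e-07) and chr1.tRNA1001-LeuCAG 2.34 (SE 0.34, adjusted p = 3.49e-06). The values of the LeuCAA genes lie inside this range. The mitochondrial leucine tRNA mt-Tl1, which reads UUA and UUG codons in mitochondria, rose by 1.62 (SE 0.18, adjusted p = 2.09e-08). The LeuCAA share of nuclear leucine counts was 28.7% (exact Clopper-Pearson 95% interval 21.4% to 36.8%) and 38.1% in the inputs of clone 65 and 39.8% and 33.5% in its TET2 CLIP libraries. In clone 75 it was 47.9% and 41.1% in input and 31.6% and 37.8% in TET2 CLIP. The groups overlapped in clone 65, whereas in clone 75 both inputs lay above both TET2 CLIP libraries, and the difference in share was not tested. Such intervals cover counting error only.

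Messenger RNAs of genes that make, modify or cut tRNA were read in the same CLIP table. Of 22 tested, 3 were higher in TET2 CLIP and 0 lower, and their median log2 difference was -0.16. Over all features 8.99% were called higher, so the count is near the background and is no result about the list. The 3 were Tet3, a relative of TET2, with 0.90 (SE 0.22, edgeR adjusted p = 0.00392), Elac2, which cuts the 3′ trailer of tRNA precursors, with 0.89 (SE 0.28, adjusted p = 0.0286), and Dicer1, which cuts microRNA precursors, with 0.66 (SE 0.14, adjusted p = 0.00124). Nsun2, Alkbh1, Lars and Tet2, given whatever their result, did not pass the test. Nsun2, the cytosine methyltransferase, had -0.22 (SE 0.21, adjusted p = 0.554). Alkbh1, the dioxygenase of the LeuCAA wobble cytosine, had 0.29 (SE 0.15, adjusted p = 0.216). Lars, the leucyl-tRNA synthetase, had -0.29 (SE 0.31, adjusted p = 0.605). The Tet2 transcript had -0.01 (SE 0.12, adjusted p = 0.968). The count of 3 fell to 0 without TET2 CLIP replicate 1 of clone 65 and to 1 without replicate 1 of clone 75, and with no count filter 0 were higher and 4 lower.

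The features whose level followed the LeuCAA sum most closely over the 8 CLIP libraries, with each clone centred on its own mean, were the small nuclear RNA genes Gm24407, Gm22042, Gm22265 and Gm24265 and the protein-coding gene Mbtd1. Pearson's r of log2(CPM + 1) ran from 0.995 to 0.998. The libraries share their clones and their difference in depth between input and CLIP, so this is a description only.

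In hm5C RIP the 4 genes also stood above input. This assay pulls down RNA with an antibody against hm5C, and the summed LeuCAA level was 9.69 and 6.59 CPM in the inputs and 58.9 and 63.9 in the pull-downs. chr11.tRNA1911-LeuCAA had 5 and 5 counts in input and 22 and 25 in hm5C RIP. chr13.tRNA1010-LeuCAA had 11 and 8 against 18 and 55. In these genes, as in the other 2, both scaled levels of the pull-down lay above both of the input. The genes were chosen for this rise, and 33.0% of all features were called higher in this comparison. The share of all features whose levels separate in this way was not computed. chr13.tRNA65-LeuCAA had 11 and 6 counts against 32 and 39, and chr13.tRNA85-LeuCAA 13 and 12 against 18 and 35. The log2 difference of the sum was 2.92 (SE 0.32), and those of the genes were 3.39 (SE 0.51), 3.00 (SE 0.52), 3.22 (SE 0.50) and 2.21 (SE 0.44) in the order above, with chr13.tRNA85-LeuCAA the lowest.

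Within leucine, the LeuCAA share of counts was 9.03% (95% interval 6.53% to 12.1%) and 5.69% (3.90% to 7.98%) in the inputs, and 24.1% (19.9% to 28.8%) and 28.2% (24.4% to 32.1%) in hm5C RIP. This share is built from the counts that the genes were chosen by, so it is a description without a test. Of the 8 other nuclear leucine tRNA genes tested, 2 were called higher and 0 lower, where 33.0% of all 2081 features were called higher, and their median log2 difference was -0.36 against 0.15 over all features. chr8.tRNA1013-LeuCAG, the most abundant, had 1.30 (SE 0.25, edgeR adjusted p = 0.00349) and chr14.tRNA709-LeuTAG 1.35 (SE 0.34, adjusted p = 0.0116). chr7.tRNA561-LeuAAG had -1.14 (SE 0.43, adjusted p = 0.0552), and mt-Tl1 fell by 0.90 (SE 0.26, adjusted p = 0.0198). The other mitochondrial leucine tRNA, mt-Tl2, had -0.95 (SE 0.60, adjusted p = 0.226). A single gene, Acsl6, took 55.2% and 60.6% of all counts of the hm5C RIP libraries and 0.255% and 0.167% of the inputs. With Acsl6 left out and no further scaling, the log2 difference of the LeuCAA sum was 4.42 beside a median of 1.99 over all features. In that setting 1686 of all 2523 features were called higher, 6 other leucine genes among them. Without RIP input replicate 1, or without replicate 2, 0 were called higher.

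**Figure D2:**
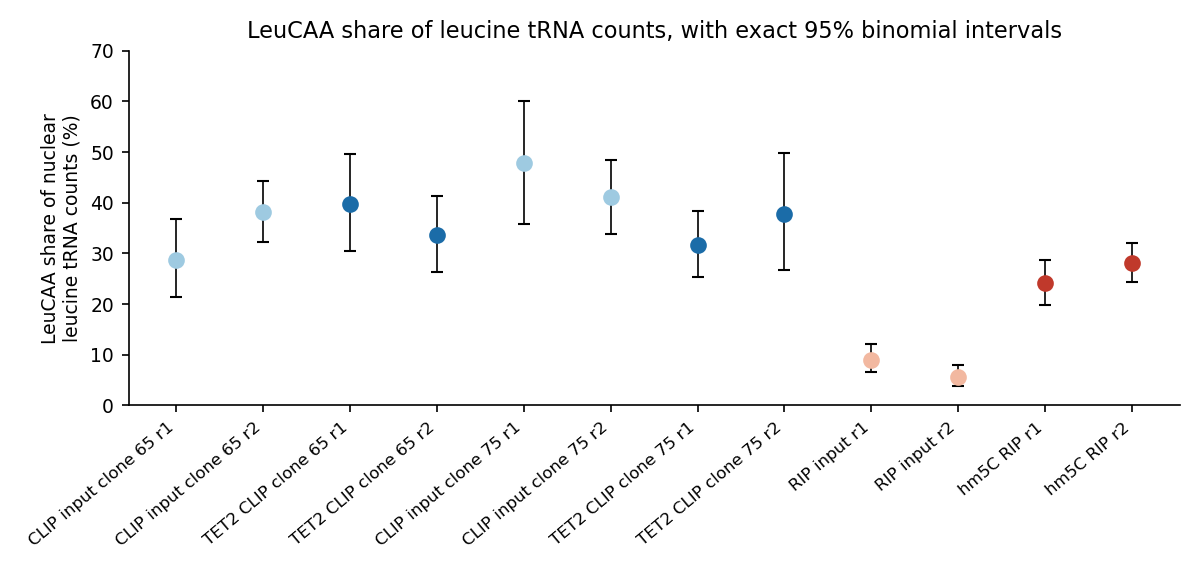
Share of nuclear leucine tRNA counts that fell on the 4 LeuCAA genes in each CLIP and RIP library, in percent, with exact Clopper-Pearson 95% intervals as bars. In clone 65 the inputs (28.7% and 38.1%) and TET2 CLIP libraries (39.8% and 33.5%) overlap, in clone 75 both inputs (47.9% and 41.1%) lie above both TET2 CLIP libraries (31.6% and 37.8%), and the hm5C RIP libraries (24.1% and 28.2%) lie above the RIP inputs (9.03% and 5.69%).

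Before the fragments are described gene by gene, their counts have to be read together. The tRF3a counts of the 4 LeuCAA genes differed from each other by no more than sampling noise in the 12 small RNA libraries, since chi-square divided by its degrees of freedom came to 1.04. The tRF3b counts were close to this at 1.17, whereas the tRF5 counts of the 4 genes differed, at 5.26. Moreover, 3 LeuCAG genes, chr1.tRNA698-LeuCAG, chr8.tRNA1013-LeuCAG and chr8.tRNA416-LeuCAG, had the same tRF3a counts within noise. The pool of 7 rows gave 0.99 for tRF3a and 1.13 for tRF3b, and the next most similar row gave 11.4 and 19.6. In WT, for example, the tRF3a rows of these LeuCAG genes held 153 to 293 counts and those of the LeuCAA genes 145 to 266. The tRF3a values below are therefore 1 measurement given 4 times, and they cannot be told apart from those of the 3 LeuCAG genes. The sources used here do not say how reads that match several genes were counted, and the pool was defined after the counts were seen.

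**Figure D3:**
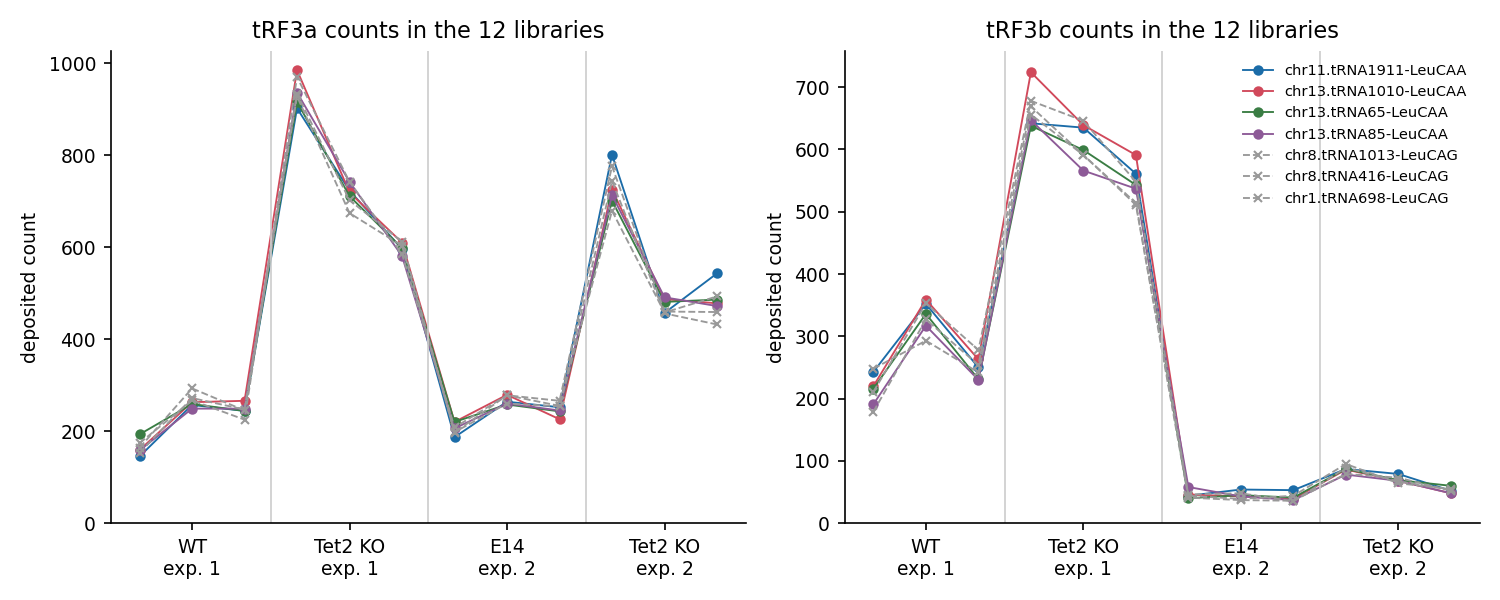
Deposited counts of tRF3a (left) and tRF3b (right) rows in the 12 small RNA libraries, with the 4 LeuCAA genes as coloured lines and circles and the 3 LeuCAG genes as grey dashed lines and crosses. The 7 lines lie on each other within sampling noise, with 145 to 293 tRF3a counts in WT.

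The LeuCAA tRF3a fragments were higher in Tet2 KO than in the control libraries of both experiments. In experiment 1 the sum over the 4 genes was 655, 1028 and 1003 counts in WT and 3739, 2895 and 2385 in Tet2 KO. After scaling within the experiment this was 8452 ± 1484 CPM (SD, n = 3) in WT and 22070 ± 1298 (SD, n = 3) in Tet2 KO, a log2 difference of 1.38 (SE 0.33). No knockout library overlapped a control library, but the genes were chosen for this rise. How many of all rows separate in this way was not computed in either experiment. In experiment 2 the counts were 833, 1061 and 966 in E14 and 2940, 1916 and 1979 in Tet2 KO. The levels were 8005 ± 1256 (SD, n = 3) and 14788 ± 2620 CPM (SD, n = 3), a log2 difference of 0.89 (SE 0.16), again without overlap. By gene the log2 differences of tRF3a ran from 1.31 (chr13.tRNA65-LeuCAA) to 1.42 (chr11.tRNA1911-LeuCAA) in experiment 1, and from 0.84 (chr13.tRNA65-LeuCAA) to 0.98 (chr11.tRNA1911-LeuCAA) in experiment 2.

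The tRF3b fragments, also from the 3′ side, were higher in Tet2 KO in experiment 1. Their sums were 870, 1364 and 974 counts in WT and 2651, 2439 and 2232 in Tet2 KO, with a log2 difference of 0.85 (SE 0.32) and 0.78 to 0.91 by gene. In experiment 2 they were 188, 185 and 170 in E14 and 338, 284 and 208 in Tet2 KO. There the scaled levels overlapped, with 1392 to 1632 CPM in E14 and 1492 to 2030 in Tet2 KO, and the log2 difference was 0.24 (SE 0.20).

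The tRF5 fragments, from the 5′ side, were fewer, and their levels overlapped between the groups in experiment 1 but not in experiment 2. How many of all rows separate as in experiment 2 was not computed. Their sums in experiment 1 were 121, 111 and 112 counts in WT and 158, 155 and 103 in Tet2 KO, with overlapping levels and a log2 difference of -0.11 (SE 0.16). By gene this ran from -0.55 (SE 0.31) for chr13.tRNA65-LeuCAA through -0.45 (SE 0.25) for chr13.tRNA85-LeuCAA and 0.12 (SE 0.19) for chr13.tRNA1010-LeuCAA to 0.44 (SE 0.21) for chr11.tRNA1911-LeuCAA. In experiment 2 the sums were 49, 66 and 54 in E14 and 111, 84 and 108 in Tet2 KO, with 398 to 518 against 549 to 775 CPM and a log2 difference of 0.49 (SE 0.26). The tRF5 of chr13.tRNA1010-LeuCAA had 5, 6 and 6 counts in E14 and 20, 16 and 15 in Tet2 KO, a log2 difference of 1.21 (SE 0.48). That of chr11.tRNA1911-LeuCAA held 4 to 10 counts per library and was too low for the filter, so 11 of the 12 rows were fitted in experiment 2.

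**Figure D4:**
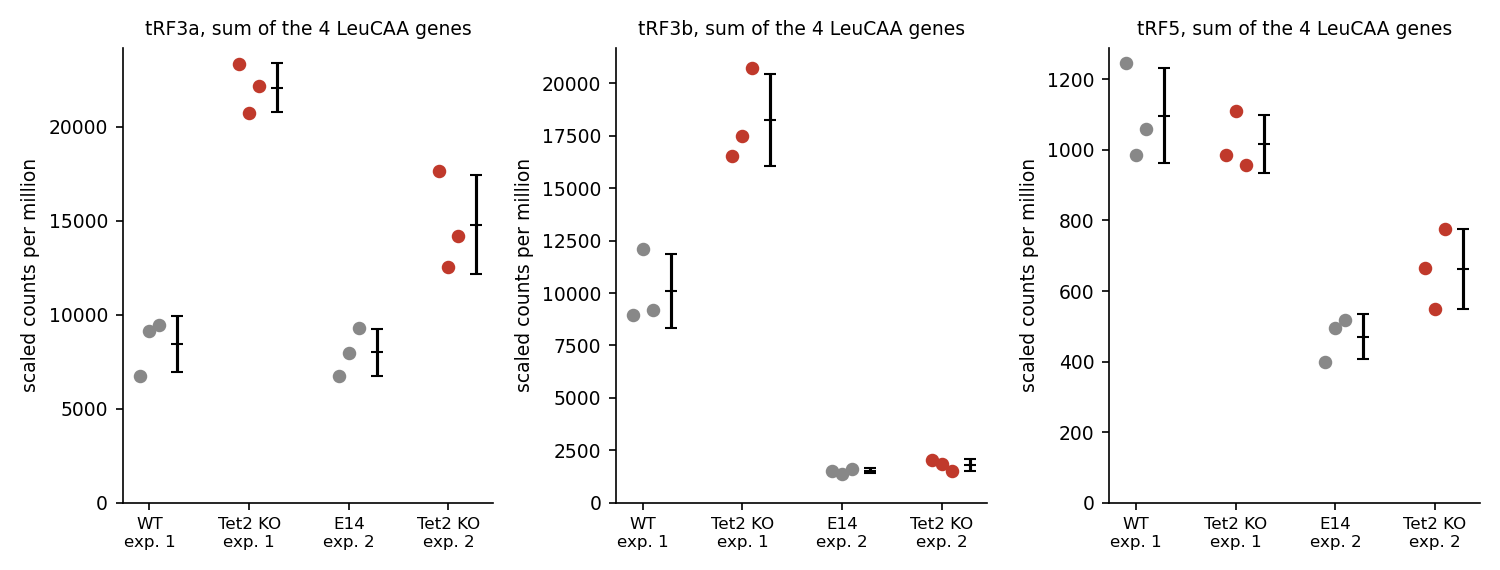
Scaled counts (CPM) of tRF3a, tRF3b and tRF5 summed over the 4 LeuCAA genes, 1 point per library (control libraries grey, Tet2 KO red), with the mean and SD of each group of 3 beside the points. Scaling was done within each experiment. Tet2 KO lies above its control without overlap for tRF3a in both experiments (22070 against 8452, and 14788 against 8005 CPM on average). The genes were chosen for this rise, and the share of all rows without overlap was not computed.

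The rise of tRF3a in experiment 1 was shared by most leucine tRNA genes. Of 49 fragment rows of other nuclear leucine genes tested there, 29 were called higher and 2 lower by edgeR, where 21.2% of all 598 rows were called higher. By kind these were 18 of 20 tRF3a rows, 11 of 17 tRF3b rows and 0 of 12 tRF5 rows, and both lower rows were tRF5. The median log2 difference was 0.97 for other leucine tRF3a and 0.80 for tRF3b, against 0.04 over all rows. This background covers rows of all kinds, and the share and median over all tRF3a rows were not computed. All tRF3a rows together made up 7.93% to 17.7% of counts in WT and 25.4% to 31.4% in Tet2 KO. Whether leucine rows rose more than other tRF3a rows was not tested. The tRF3a of chr7.tRNA561-LeuAAG had 1.62 (SE 0.22, edgeR adjusted p = 0.00384), and that of chr8.tRNA1013-LeuCAG, from the pool of shared counts, 1.42 (SE 0.20, adjusted p = 0.00384). An alternative chosen after seeing the data was fitted on tRF3a and tRF3b rows alone. There 10 other leucine rows were called higher, where 51 of all 367 rows were, and the LeuCAA tRF3a sum differed by 0.92.

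In experiment 2, 3 of 33 other leucine rows were called higher and 1 lower, where 9.64% of all 498 rows were called higher. The 3 were the tRF3a rows of chr8.tRNA416-LeuCAG with 0.82 (SE 0.18, edgeR adjusted p = 0.00034), chr8.tRNA1013-LeuCAG with 0.79 (SE 0.17, adjusted p = 0.000392) and chr1.tRNA698-LeuCAG with 0.79 (SE 0.17, adjusted p = 0.000393). These are the 3 LeuCAG genes whose counts cannot be told apart from those of LeuCAA. The lower row was the tRF5 of chr14.tRNA709-LeuTAG with -1.03 (SE 0.38, adjusted p = 0.0447). The median of other leucine tRF3a rows was 0.29, against 0.09 over rows of all kinds. Without Tet2 KO replicate 1 of experiment 2, 1 row was called higher.

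All tRF3a rows together also took a larger part of the knockout libraries. They made up 7.93%, 15.8% and 17.7% of the counts in WT and 31.4%, 28.2% and 25.4% in Tet2 KO of experiment 1. In experiment 2 they made up 15.3%, 12.3% and 12.1% in E14 and 19.2%, 20.4% and 15.8% in Tet2 KO. Within tRF3a, the 4 LeuCAA rows took 4.99%, 5.71% and 5.41% in WT and 8.64%, 8.85% and 9.78% in Tet2 KO. The same share in experiment 2 was 4.45%, 5.81% and 7.22% in E14 and 8.85%, 7.19% and 8.71% in Tet2 KO. These shares rest on the tRF3a counts that the genes were chosen by and are given as a description. In experiment 2 the groups overlapped, with knockout replicate 2 just below E14 replicate 3.

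The same libraries entered the choice of genes, but whether the knockout difference differs between the experiments was not a criterion. In 1 edgeR fit over all 12 small RNA libraries, it was smaller in experiment 2 for 8 of the 12 LeuCAA rows, all 4 tRF3a and all 4 tRF3b rows, where 13.8% of all 698 rows were called lower. The log2 differences ran from -1.08 to -0.96 for tRF3a and from -1.29 to -0.95 for tRF3b, with adjusted p from 0.00672 to 0.0366. The median over all rows was -0.39. Other leucine rows shifted likewise. Of their tRF3a rows 12 of 20 were called lower and 0 higher, with a median of -1.20. Of their tRF3b rows 7 of 18 were called lower and 0 higher, with a median of -1.18. The LeuCAA medians were -1.03 and -1.13, so the shift is not particular to LeuCAA. The 8 LeuCAA rows stand for about 2 measurements, since the 4 genes share their 3′ counts. This call rested on the scaling and on single libraries. It held for 2 rows with DESeq2's size factors, for 0 rows with library size alone or with no count filter, and for 0 rows without WT replicate 1 or without any 1 of the 6 libraries of experiment 2. Fitted separately, the experiments gave 1.38 and 0.89 for the tRF3a sum, which differ by less. The kit, the control line and the set of knockout libraries changed together between the experiments and cannot be told apart.

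The control libraries could be compared in the same fit, but their line and library kit differ together and cannot be told apart. Their tRF3a counts entered the rises by which the genes were chosen, so this comparison is not independent of the choice. The 4 genes share their 3′ counts, so their rows of a kind stand for about 1 measurement. LeuCAA tRF3a was higher in E14 than in WT for 4 of 4 genes, with log2 differences of 0.94 to 1.01. LeuCAA tRF3b was lower for 4 of 4 genes, with -1.84 to -1.55, and so was the tRF5 of chr13.tRNA1010-LeuCAA with -1.73 (SE 0.40, edgeR adjusted p = 0.000287). Over all rows, 33.7% were called higher in E14 and 36.0% lower. With library size alone the median over all rows was -1.02, the tRF3a sum differed by 0.01 and 0 of its 4 rows were called, whereas the tRF3b sum differed by -2.62. Without WT replicate 1 the tRF3a sum differed by 0.49, against 0.98 with it.

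The balance of the 2 kinds of 3′ fragment needs no scaling between libraries. In WT there were 0.753, 0.754 and 1.03 LeuCAA tRF3a counts per tRF3b count, and in E14 there were 4.43, 5.74 and 5.68. The means were 0.845 and 5.28, and the exact permutation test (two-sided, 3 against 3 libraries) gave p = 0.1, the smallest it can give. Line and library kit cannot be told apart in this comparison either. The control tRF3a counts also entered the rises by which the genes were chosen, so the test is not independent of the choice. In Tet2 KO the ratio was 1.41, 1.19 and 1.07 in experiment 1 and 8.70, 6.75 and 9.51 in experiment 2. The knockout ratios are a description only, because the tRF3a rise in knockout was used to choose the genes, and the 3 LeuCAG genes of the shared pool have the same counts within sampling noise. Over the rows of all tRNA genes the ratio was 1.18, 1.20 and 1.45 in WT and 1.63, 1.38 and 1.21 in its knockout. In experiment 2 it ran from 4.60 to 5.95 in E14 and was 6.996, 5.70 and 6.57 in Tet2 KO.

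**Figure D5:**
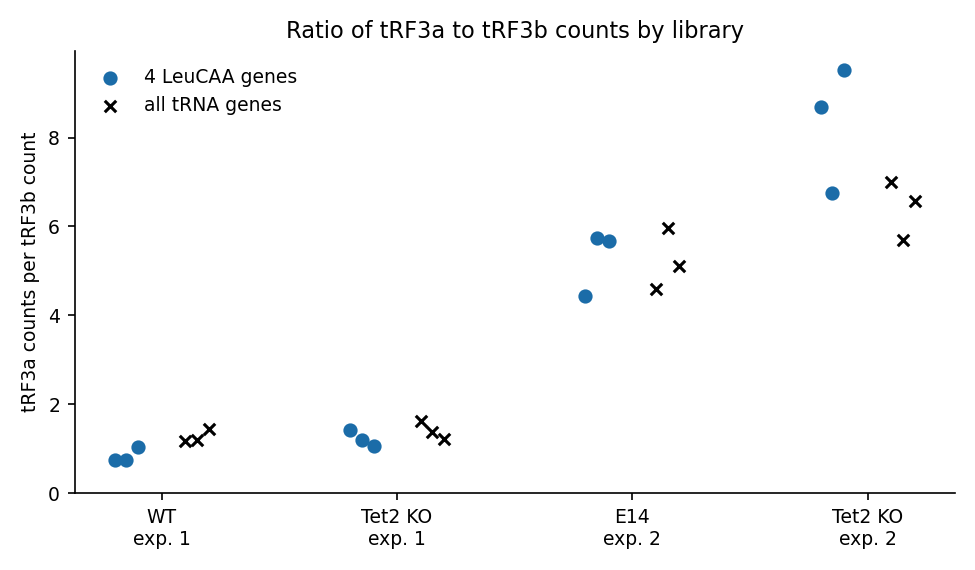
Number of tRF3a counts per tRF3b count in each small RNA library, for the 4 LeuCAA genes together (blue circles) and for all tRNA genes (black crosses). For LeuCAA the ratio is 0.753 to 1.41 in experiment 1 and 4.43 to 9.51 in experiment 2.

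The rows most like LeuCAA tRF3a over the 12 small RNA libraries, each experiment centred on its own mean, were the tRF3a of the 3 LeuCAG genes of the shared pool, with Pearson's r of 0.993 to 0.996. They were followed by chr3.tRNA93-ProAGG tRF3a with 0.985 and chr1.tRNA1030-ProCGG tRF3a with 0.978. The proline rows do not share the LeuCAA counts, and the points share the same 12 libraries.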

How the data were processed

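The authors deposited 3 tables of whole-number counts, for CLIP, RIP and tRNA fragments. The submitters' processing notes name UMI-tools, cutadapt, STAR 2.5.3a, Bowtie2 2.2.6 and the build mm10, without saying which step used which or how reads matching several tRNA genes were counted. The deposited counts were fitted in R 4.3.3 with edgeR 4.0.16 (filterByExpr, TMM scaling, robust quasi-likelihood fit, Benjamini-Hochberg adjustment over all rows tested, threshold 0.05). Sums over the 4 genes were fitted with the library scaling of the single rows. DESeq2 1.42.0, other scalings, no filter, a replicate block and leaving out each library were alternatives. The scripts were tested on simulated data. The genes and lists were chosen with earlier results of these data known. All 4 genes and their fragment rows are named, with the 3 most abundant or smallest-p other leucine rows as examples, the mitochondrial leucine tRNAs, and listed maturation genes that passed. No tRNA sequence was used here.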

Additional observations from a re-analysis of the deposited data

Results flagged for a closer look

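The rise of chr13.tRNA65-LeuCAA in TET2 CLIP was smaller in clone 75 than in clone 65, with a log2 difference of -2.63, and it was listed because the clones differed in a direct test. Its TET2 CLIP libraries of clone 75 held 25 and 3 counts.

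The knockout difference was smaller in experiment 2 than in experiment 1 for the 3′ fragments, also in a direct test. For tRF3a the log2 values were -0.96 for chr11.tRNA1911-LeuCAA, -1.05 for chr13.tRNA1010-LeuCAA, -1.003 for chr13.tRNA65-LeuCAA and -1.08 for chr13.tRNA85-LeuCAA. For tRF3b they were -1.15, -1.10, -0.95 and -1.29 in the same order. The kit, the control line and the knockout libraries cannot be told apart here, and the 4 genes share their 3′ counts. The number of LeuCAA rows called lower ran from 0 to 8 over the alternatives. The separate fits of the experiments differ by less, as given above.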

How the results depend on the processing

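All values are log2 differences of the LeuCAA sum unless a gene or count is named. The sums in TET2 CLIP kept their size under the alternatives run for them, and sums were not fitted with no filter or with DESeq2's Wald test. Replicate numbers did not pair the samples: correlations of same-numbered deviations were near 0 in CLIP and RIP and of mixed sign in the small RNA libraries. The fit with the replicate number as a block gave 2.87 for the TET2 CLIP sum, called 7 of 12 rows lower in the experiment difference, 0 LeuCAA genes higher in the input of clone 75, 1 other leucine row lower in experiment 1 and 0 lower in experiment 2.

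With library size alone the sums were -1.67 for the clone difference, 0.94 for input of clone 75 against 65, and 1.77, 1.26 and 0.36 for tRF3a, tRF3b and tRF5 in experiment 1, where the median of all rows moved from 0.04 to 0.50. They were 0.25 for the tRF5 experiment difference and 0.0066, -2.62 and -1.06 for tRF3a, tRF3b and tRF5 of E14 against WT. It turned chr13.tRNA85-LeuCAA tRF5 to 0.0098 in experiment 1 and, in E14 against WT, chr13.tRNA1010-LeuCAA tRF3a to -0.018, chr13.tRNA65-LeuCAA tRF3a to -0.0076 and tRF5 to -0.39, and chr13.tRNA85-LeuCAA tRF5 to -0.53. The counts became 0 for the experiment difference, 0 higher for E14, 1 other leucine row lower in experiment 1 and 0 lower in experiment 2.

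With DESeq2's size factors the tRF5 experiment difference was 0.27, and 2 rows were lower in the experiment difference, 2 genes higher in the input and 2 other leucine rows lower in experiment 2. DESeq2's Wald test called 2 genes lower between clones, 2 rows lower between experiments and 2 other leucine rows lower in experiment 2. With no filter, 0 rows were lower between experiments, 0 other leucine genes higher and 1 lower in RIP, and 0 maturation genes higher and 4 lower. With Acsl6 left out, the RIP sum was 4.42 and 6 other leucine genes were higher with library size alone, and 1 was lower with TMM.

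On tRF3a and tRF3b rows alone, an alternative chosen after seeing the data, the tRF3a and tRF3b sums were 0.92 and 0.38 in experiment 1, 0.55 and -0.081 in experiment 2, and -0.59 and -0.67 for the experiment difference. The tRF3b of chr11.tRNA1911-LeuCAA, chr13.tRNA1010-LeuCAA and chr13.tRNA85-LeuCAA gave -0.17, -0.032 and -0.18 in experiment 2. Then 3 LeuCAA rows were lower between experiments, and the other leucine counts were 10 higher and 0 lower in experiment 1 and 0 and 0 in experiment 2.

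Leaving out 1 library gave -2.55 to -2.01 for the clone difference, 1.13 to 1.62 for the input, 2.27 to 2.90 for RIP, -0.24 to 0.0024 for tRF5 in experiment 1, and -1.17 to -0.31, -1.38 to -0.45 and -0.0076 to 0.69 for tRF3a, tRF3b and tRF5 of the experiment difference. For E14 against WT the ranges were 0.49 to 1.10, -2.11 to -1.44 and -0.56 to -0.11. The tRF5 experiment difference was -0.0063 without knockout replicate 1 of experiment 1. The tRF3b of chr11.tRNA1911-LeuCAA in experiment 2 was -0.028 without E14 replicate 1 and -0.00057 without knockout replicate 2, with a highest value of 0.31. The tRF5 of chr13.tRNA85-LeuCAA in E14 against WT ran from -0.075 without E14 replicate 2 to 0.44. The TET2 CLIP difference of chr13.tRNA65-LeuCAA in clone 75 ran from -0.34 without TET2 CLIP replicate 1 to 1.93 without replicate 2. Counts ran from 0 to 1 for the clone difference, 0 to 2 for the input, 0 to 8 for the experiment difference, 0 to 3 higher and 0 to 2 lower for other leucine genes in RIP, 0 to 3 higher and 0 to 2 lower for maturation genes, 1 to 6 lower in experiment 1, and 1 to 3 higher and 0 to 1 lower in experiment 2. Depth limits the CLIP and RIP genes, which held 3 to 55 counts a library.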
